A study of Mus musculus with 12 samples.

Results

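The ERK feedback genes examined here are 10 genes whose transcripts are known to follow the activity of the Ras-ERK pathway: the MAP kinase phosphatases Dusp1, Dusp4, Dusp5 and Dusp6, the pathway inhibitors Spry1, Spry2, Spry4 and Spred1, and the transcription factors Etv4 and Etv5. They were picked by name, and each is represented by its brightest probe set among those that the platform annotation pairs with a single symbol. All 10 were found, out of 19937 genes with such a probe set. Their RNA was measured in 4T1, a mouse mammary carcinoma cell line of BALB/cfC3H background, on Affymetrix Mouse Gene 1.0 ST arrays. Stable lines carrying constructs of Mkl1 (now Mrtfa), a coactivator of serum response factor (Srf), were set beside a control line. From background knowledge of Mkl1 and not from the labels, ΔSAP is read as Mkl1 lacking its SAP domain, mutB1 as Mkl1 mutated in the basic region B1, which takes part in binding Srf, and FL as full-length Mkl1. The promoter of the constructs and what the control line carries are not stated in the sources used here. Each of the 4 lines had 3 arrays, from triplicate cultures per the series design text, and all cultures were kept for 48 h in medium with 0.03% serum before RNA extraction. Each construct is represented by a single stable line, so an effect of the construct and a property of the line cannot be told apart, and the p-values below measure the spread between cultures of a line.

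Growth factor receptors switch on Ras, which drives the kinases Raf, Mek and Erk in sequence. Active Erk raises the transcription of its own brakes. Dusp6 (cytoplasmic) and Dusp5 (nuclear) remove phosphate from Erk, Dusp4 is a nuclear phosphatase of Erk and related kinases, and Dusp1 is an immediate early phosphatase that also acts on the stress kinases p38 and Jnk. Sprouty proteins (Spry1, Spry2, Spry4) and Spred1 restrain signalling between receptor, Ras and Raf, and Spred1 brings the Ras inactivator neurofibromin to the membrane. Etv4 and Etv5 are Ets transcription factors of the PEA3 group, whose transcripts rise with fibroblast growth factor and Erk signalling. Transcript levels of these genes are often read as a measure of pathway output, but the arrays hold no measurement of kinase activity.

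The sequence before the transcription start is shown for the pair of members that moved most, Dusp5 and Spry1, and for the immediate early gene Dusp1. RefSeq promoter windows of build GRCm38.p6 were matched by symbol for 7 of the 10 members (Dusp1, Dusp5, Dusp6, Spry1, Spry2, Spred1 and Etv5) and not for Dusp4, Spry4 or Etv4. The 250 bases before each start were searched on both strands for the CArG box (the Srf site, given by name) and the Ets sequence CCGGAAGT. The AP-1 site TGANTCA and the cAMP response element TGACGTCA were searched for as well. Shorter or variant Ets sites were not searched for. The sites found did not overlap each other. The lines below give the Dusp5 window at chr19:53528895-53529144 (plus strand), the Spry1 window at chr3:37639697-37639946 (plus strand) and the Dusp1 window at chr17:26508473-26508722 (minus strand), each 5′ to 3′ along its gene and ending at the last base before the start. Capitals mark matches: 2 adjoining CArG boxes in Dusp5 and a cAMP response element in Dusp1, with no match in Spry1.
Dusp5: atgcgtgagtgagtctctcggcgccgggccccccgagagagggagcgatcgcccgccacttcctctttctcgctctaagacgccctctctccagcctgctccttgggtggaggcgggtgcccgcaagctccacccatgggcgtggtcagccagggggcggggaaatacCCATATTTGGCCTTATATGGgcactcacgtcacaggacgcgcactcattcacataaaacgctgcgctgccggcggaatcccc
Spry1: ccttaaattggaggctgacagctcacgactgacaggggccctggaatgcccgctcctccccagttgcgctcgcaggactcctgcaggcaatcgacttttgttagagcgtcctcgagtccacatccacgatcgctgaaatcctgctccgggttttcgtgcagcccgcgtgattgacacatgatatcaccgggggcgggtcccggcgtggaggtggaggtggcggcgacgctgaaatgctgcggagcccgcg
Dusp1: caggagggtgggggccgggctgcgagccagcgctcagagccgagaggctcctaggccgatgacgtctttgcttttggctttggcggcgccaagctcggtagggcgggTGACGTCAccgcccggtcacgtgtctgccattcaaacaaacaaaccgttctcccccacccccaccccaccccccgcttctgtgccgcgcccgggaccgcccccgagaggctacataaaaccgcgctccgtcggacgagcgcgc

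The Dusp5 boxes lay at bases 82 to 73 and 72 to 63 before the start (chr19:53529063-53529072 and chr19:53529073-53529082), and the Dusp1 element at bases 143 to 136 before it. A CArG box was present in 482 of all 32851 windows searched (1.47%), and 6 windows (0.0183%) held at least 2, a count made after the Dusp5 window was seen. The cAMP response element was present in 1.55% of windows, the Ets sequence CCGGAAGT in 2.88% and the AP-1 site in 6.75%. Among the 7 members with a window, the CArG box was found in Dusp5 and the cAMP response element in Dusp1. Neither the exact sequence CCGGAAGT nor the AP-1 site was found in any of these 250-base windows. A match is a stretch of letters and does not show binding, and a window without one does not show that a factor is absent.

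Across arrays, the deposited log2 values correlated at r = 0.995 to 0.997 within a line and at 0.988 to 0.995 between lines, and array medians lay between 6.35 and 6.45. The Mrtfa transcript lay between 11.87 and 11.95 in the ΔSAP line, 11.22 and 11.41 in mutB1, 12.03 and 12.14 in FL, and 9.26 and 9.28 in control. It was higher in each construct line than in control (by 2.64 in ΔSAP, 2.01 in mutB1 and 2.81 in FL) and lower in mutB1 than in FL by 0.79 on the log2 scale (mutB1 minus FL -0.79 ± 0.06, SE; limma adjusted p = 2.79e-06). Most markers of the luminal mammary epithelium lay above the lowest array median. Of the 7 genes, 1 had a line mean below it in ΔSAP, FL and control each, and 2 did in mutB1. Krt8 line means were 12.93 to 13.20. The list was lower in mutB1, with a median change of -1.86 against FL. The array averages of its 7 genes ran from 10.43 to 10.46 in ΔSAP and 8.73 to 8.76 in mutB1. These averages ran from 9.96 to 9.97 in FL and 9.88 to 9.92 in control. The average of the 8 fibroblast markers was higher in mutB1, at 6.64 to 6.79 in ΔSAP, 7.62 to 7.67 in mutB1, 6.72 to 6.81 in FL and 6.84 to 6.97 in control. Leukocyte and endothelial markers lay near or below the array medians in every line, with averages between 4.75 and 5.05. The higher fibroblast average came from Pdgfrb, Fbln1 and Pdgfra, which rose in mutB1 against FL by 3.96, 1.61 and 1.49, while the other 5 did not pass, and the median change of the 8 was 0.08. Called marker changes accompanied all 6 comparisons of lines, and their part in the results was not tested. In such bulk samples, fewer cells of a type and less RNA per cell cannot be told apart.

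Differences were tested with limma in a fit of all 12 arrays, and p-values were adjusted by Benjamini and Hochberg's method across the 34760 probe sets. A gene is said to rise or fall where its adjusted p was at most 0.01, with no minimum fold. By the F test over the 4 lines, 9 of the 10 genes differed somewhere, where 27.7% of all probe sets did, with Dusp1 as the exception (adjusted p = 0.459). That share takes in 11799 probe sets without a symbol, whereas each member is the brightest probe set of its gene. By their brightest probe set, at least 7698 of 19937 genes differed. The spread between the highest and the lowest line mean was largest for Spry1 (1.27 log2 units) and Dusp5 (1.19), followed by Etv4 (0.59), Spry4 (0.54) and Spred1 (0.46). It lay between 0.13 and 0.35 for Dusp1, Etv5, Dusp4, Dusp6 and Spry2.

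**Figure D1:**
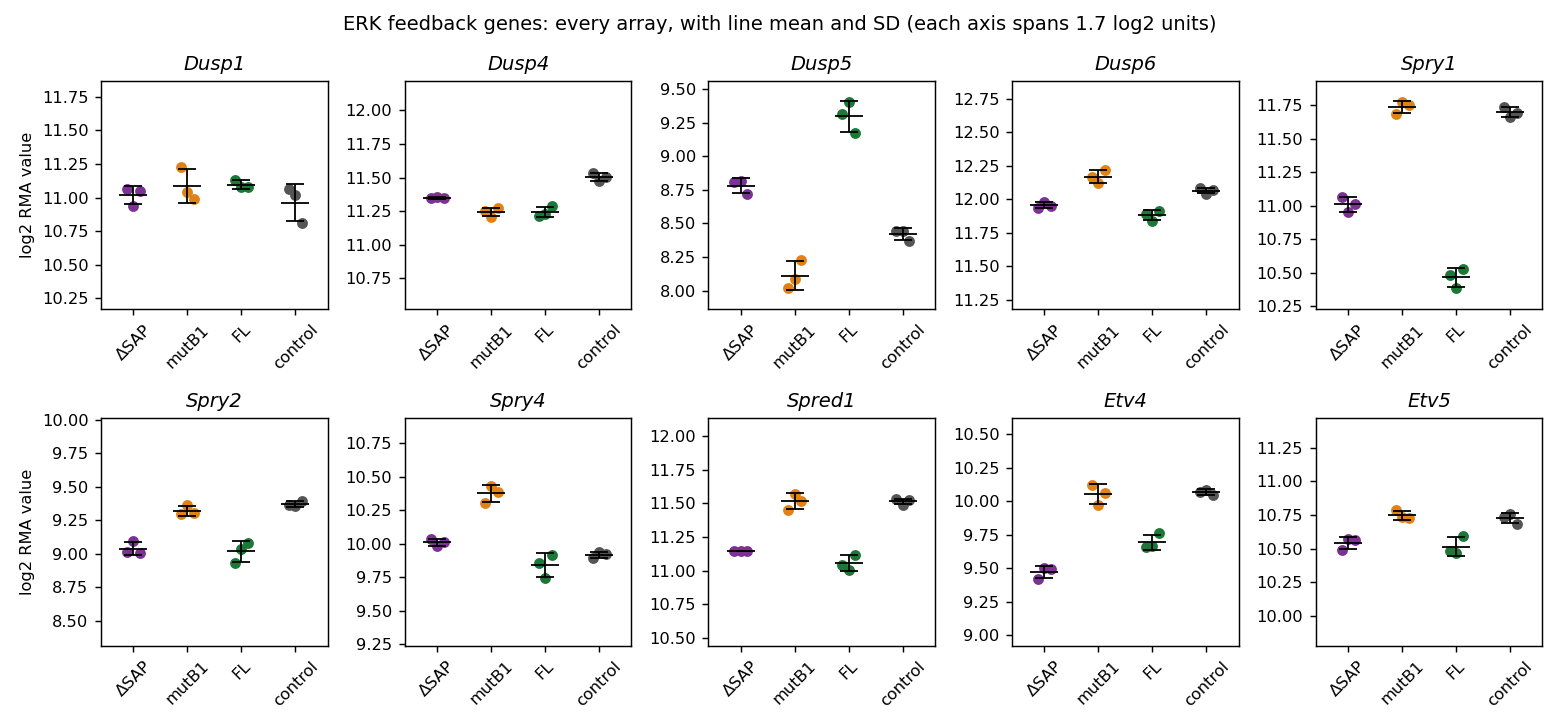
Log2 RMA value (vertical axes, each spanning 1.7 log2 units) of the 10 ERK feedback genes on every array of the ΔSAP, mutB1, FL and control lines; dots are arrays, and the long and short bars are the line mean and SD (n = 3). Dusp6, Spry1, Spry2, Spred1, Etv4 and Etv5 are higher on every mutB1 and control array than on any ΔSAP or FL array, though not all of these differences passed. Dusp5 is highest in FL at 9.30 and lowest in mutB1 at 8.11.

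In the mutB1 line set against FL, the comparison that addresses the B1 region, 7 of the 10 genes were higher and Dusp5 was lower. All of the inhibitors rose in mutB1, Spry1 the most (2.41-fold) and Spry4 (1.45-fold), Spred1 (1.38-fold) and Spry2 (1.23-fold) by less. Etv4 and Etv5 rose 1.28-fold and 1.18-fold and the phosphatase Dusp6 rose 1.22-fold, whereas Dusp5 fell to 8.11 ± 0.11 in mutB1, against 9.30 ± 0.11 in FL (SD, n = 3). Among all probe sets 9% rose and 8.82% fell in this comparison, 17.8% in all. The median change of the 10 genes was 0.29 on the log2 scale, and that of all probe sets was 0.0039. With the stricter filter that the design text describes, which also asks for a 2-fold difference and a mean log2 value of 4, Spry1 and Dusp5 passed, 2 of 10 where 1.6% of all probe sets did. The mutB1 line also held less Mrtfa RNA than FL. Of 7 luminal markers 4 fell and 1 rose, and of 8 fibroblast markers 3 rose, and the part of either in these changes was not tested.

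In the ΔSAP line set against FL, the comparison that addresses the SAP domain, 3 of the 10 genes passed. Spry1 rose 1.46-fold in ΔSAP, Dusp5 fell by 0.52 on the log2 scale and Etv4 fell by 0.22. Among all probe sets 5.7% rose and 5.73% fell, and 11.4% passed in either direction. The median change of the 10 genes was 0.05, against -0.03 for all probe sets. Of 7 luminal epithelial markers 6 rose in ΔSAP in this comparison, and their part in the result was not tested.

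Set against each other, the ΔSAP line had 7 of the 10 genes lower than mutB1 and Dusp5 higher. The median of the 10 changes was -0.25, against -0.03 for all probe sets, of which 8% fell and 7.07% rose (15.1% in all). No member passed the design text's stricter filter in limma, where 1.42% of all probe sets did (0.503% in ΔSAP against FL, also with no member). Spry1 was 1.65-fold and Etv4 1.49-fold lower in ΔSAP, and Dusp5 1.59-fold higher. Of 7 luminal markers 4 rose in ΔSAP against mutB1, and of 8 fibroblast markers 3 fell.

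Against the control line, 7 of the 10 genes fell and Dusp5 rose in FL, where 10.4% of all probe sets fell and 9.61% rose (20% in all). In ΔSAP 5 fell (Dusp4, Spry1, Spry2, Spred1 and Etv4) and Dusp5 rose, where 7.83% of all probe sets fell and 6.96% rose (14.8% in all). In mutB1 Spry4 rose and Dusp4 and Dusp5 fell, where 5.83% of all probe sets rose and 6.89% fell (12.7% in all). The median changes of the 10 genes were -0.24 in FL, 0.01 in mutB1 and -0.17 in ΔSAP, against -0.0098, -0.0012 and -0.03 for all probe sets. Of 7 luminal markers, 4 rose in ΔSAP (median of the 7 changes 0.50), 5 fell in mutB1, and 2 rose and 2 fell in FL against control. Of 8 fibroblast markers, 1 rose and 2 fell in ΔSAP, 2 rose in mutB1, and 1 rose and 2 fell in FL. The part of these markers in the members' changes was not tested. The FL arrays enter mutB1 minus FL, ΔSAP minus FL and FL minus control, so these are not separate evidence. The 3 comparisons with control likewise share the control arrays, so their values are given side by side and not counted as separate evidence. Spry1 in FL, at 2.34-fold lower than control, was the member that passed the design text's filter here, as 1.83% of all probe sets did. No member passed it in mutB1 or ΔSAP against control in limma, where 1.21% and 1.34% of probe sets did.

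**Figure D2:**
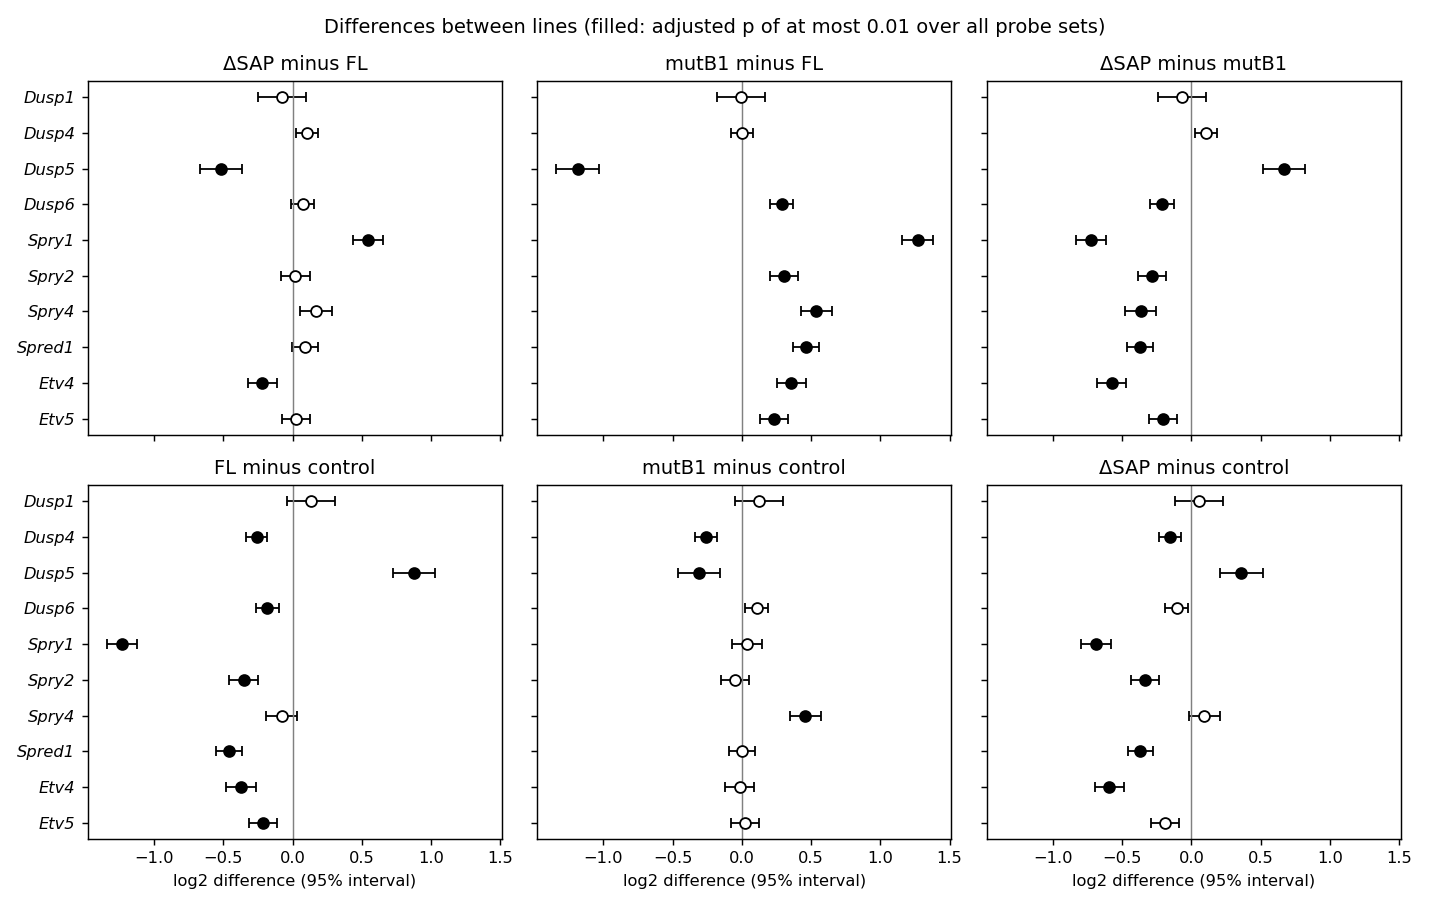
Log2 difference between lines (horizontal axes, with 95% intervals from limma) for the 10 genes in each of the 6 comparisons, first-named line minus second; filled dots have an adjusted p of at most 0.01 over all probe sets. In mutB1 minus FL 7 genes lie to the right and Dusp5 to the left at -1.19, and in FL minus control Spry1 lies at -1.23 and Dusp5 at 0.88.

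Spry1 had the widest range among the inhibitors. Its log2 values were 11.07, 10.95 and 11.01 in ΔSAP, 11.69, 11.77 and 11.75 in mutB1, 10.49, 10.39 and 10.53 in FL, and 11.74, 11.66 and 11.69 in control. All FL arrays lay below all ΔSAP arrays, which lay below all mutB1 and control arrays, while the mutB1 and control arrays overlapped. The difference was 1.27 ± 0.05 for mutB1 minus FL (SE; limma adjusted p = 3.71e-08), -1.23 ± 0.05 for FL minus control (adjusted p = 3.38e-08) and 0.54 ± 0.05 for ΔSAP minus FL (adjusted p = 4.09e-05). ΔSAP was lower than mutB1 (-0.73 ± 0.05, limma adjusted p = 2.39e-06) and lower than control (-0.69 ± 0.05, adjusted p = 3.76e-06). The neighbours mutB1 and control differed by 0.04 (95% interval -0.07 to 0.15, limma adjusted p = 0.68). The order from high to low was thus mutB1 and control, not told apart, then ΔSAP, then FL.

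Spred1 had a smaller span. It averaged 11.15 ± 0.0023 in ΔSAP, 11.52 ± 0.06 in mutB1, 11.06 ± 0.06 in FL and 11.51 ± 0.02 in control (SD, n = 3). Every mutB1 and control array lay above every ΔSAP and FL array. Spred1 was 0.46 ± 0.04 higher in mutB1 than in FL (SE; limma adjusted p = 1.89e-05) and changed by -0.46 ± 0.04 in FL against control (adjusted p = 1.48e-05). It changed by -0.37 ± 0.04 in ΔSAP against mutB1 (limma adjusted p = 0.000111) and by the same amount against control (adjusted p = 0.000116). ΔSAP and FL differed by 0.09 (95% interval -0.0016 to 0.19, limma adjusted p = 0.189), and mutB1 and control, by under 0.01 with an interval of -0.09 to 0.09 (adjusted p = 0.997).

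Spry2 and Spry4, the other Sprouty genes, did not move alike. Spry2 averaged 9.04 ± 0.05 in ΔSAP, 9.32 ± 0.04 in mutB1, 9.02 ± 0.08 in FL and 9.37 ± 0.02 in control (SD, n = 3). Its ΔSAP and FL arrays overlapped, as did its mutB1 and control arrays, and the lowest mutB1 or control array, at 9.30, was above the highest ΔSAP or FL array, at 9.09. Spry2 rose by 0.30 ± 0.05 in mutB1 against FL (SE; limma adjusted p = 0.000623), and changed by -0.35 ± 0.05 in FL (adjusted p = 0.000176) and -0.33 ± 0.05 in ΔSAP (adjusted p = 0.000408) against control. Its change in ΔSAP against mutB1 was -0.28 ± 0.05 (limma adjusted p = 0.00121, and 0.0106 in a fit of these lines alone). Spry4 had values of 10.04, 9.98 and 10.01 in ΔSAP, 10.31, 10.43 and 10.39 in mutB1, 9.86, 9.74 and 9.92 in FL, and 9.89, 9.93 and 9.92 in control. The mutB1 arrays stood above all others, and the FL and control arrays overlapped.

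Spry4 rose in mutB1 by 0.54 ± 0.05 against FL (SE; limma adjusted p = 2.38e-05) and by 0.46 ± 0.05 against control (adjusted p = 9.99e-05), and it was lower in ΔSAP than in mutB1 (-0.37 ± 0.05, adjusted p = 0.000416). Against control it differed by 0.09 in ΔSAP (95% interval -0.02 to 0.20) and by -0.08 in FL (interval -0.19 to 0.03), neither of which passed (limma adjusted p = 0.242 and 0.33). Between ΔSAP and FL it differed by 0.17 (limma adjusted p = 0.0423, interval 0.06 to 0.28). Spry4 was therefore highest in mutB1 alone, whereas Spry1, Spry2 and Spred1 were high in both mutB1 and control.

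Dusp5, the nuclear phosphatase of Erk, ran against the inhibitors. Its log2 values were 8.81, 8.81 and 8.72 in ΔSAP, 8.02, 8.08 and 8.23 in mutB1, 9.32, 9.40 and 9.17 in FL, and 8.45, 8.44 and 8.37 in control. No arrays of different lines overlapped, and the order from high to low was FL, ΔSAP, control and mutB1. Dusp5 fell by 1.19 on the log2 scale in mutB1 against FL (SE 0.07, limma adjusted p = 7.14e-07), a 2.28-fold lower level. ΔSAP was 0.52 lower than FL (-0.52 ± 0.07, limma adjusted p = 0.000482) and 0.67 ± 0.07 higher than mutB1 (adjusted p = 5.25e-05). FL exceeded control by 0.88 ± 0.07 (limma adjusted p = 4.87e-06), a 1.84-fold higher level.

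The smaller distances of Dusp5 from control were less secure. It rose by 0.36 ± 0.07 in ΔSAP against control (limma adjusted p = 0.00334), a call lost without ΔSAP replicate 1 or 2 or control replicate 1 or 3, left out singly (adjusted p = 0.0107 to 0.0162). In mutB1 it changed by -0.31 ± 0.07 against control (limma adjusted p = 0.00946). That call ended when any of 9 arrays was left out, the 3 exceptions being mutB1 replicate 3 and FL replicates 2 and 3, with an adjusted p of up to 0.04. It also ended with array medians aligned (adjusted p = 0.0114), after a further quantile normalization (0.0261) and in a fit of the mutB1 and control arrays alone (0.0288). Dusp5 is also the member whose promoter window, printed above, holds CArG boxes. Whether Srf or any construct bound there was not measured.

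Dusp6, the cytoplasmic Erk phosphatase, moved with the inhibitors by small amounts. It averaged 11.96 ± 0.02 in ΔSAP, 12.17 ± 0.05 in mutB1, 11.88 ± 0.04 in FL and 12.06 ± 0.02 in control (SD, n = 3). None of the compared lines overlapped, and the order was mutB1, control, ΔSAP and FL. Dusp6 rose by 0.29 ± 0.04 in mutB1 against FL (SE; limma adjusted p = 0.000233). Its change was -0.21 ± 0.04 in ΔSAP against mutB1 (limma adjusted p = 0.00208), with adjusted p = 0.0103 without mutB1 replicate 3 and 0.0255 in a fit of these lines alone. In FL it changed by -0.18 ± 0.04 against control (limma adjusted p = 0.00413), a call lost without FL replicate 1 or 2 or control replicate 1 or 3, left out singly (adjusted p = 0.0134 to 0.0201), and in a fit of these lines alone (0.0208). The neighbours in the order did not pass: mutB1 exceeded control by 0.11 (95% interval 0.02 to 0.19, adjusted p = 0.0839), ΔSAP lay 0.11 below control (-0.11, interval -0.19 to -0.02, adjusted p = 0.068), and ΔSAP exceeded FL by 0.07 (interval -0.01 to 0.16, adjusted p = 0.244).

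Dusp4 was highest in control, with mutB1 as low as FL. It averaged 11.35 ± 0.01 in ΔSAP, 11.24 ± 0.03 in mutB1, 11.24 ± 0.04 in FL and 11.50 ± 0.03 in control (SD, n = 3), and all control arrays lay above all others, while the mutB1 and FL arrays overlapped. It changed by -0.26 ± 0.03 in both FL and mutB1 against control (SE; limma adjusted p = 0.000232 and 0.000391). In ΔSAP its change was -0.15 ± 0.03 (limma adjusted p = 0.00927). That call ended when any of 11 arrays was left out, FL replicate 3 being the exception (adjusted p of up to 0.0416), with array medians aligned (0.0294) and in a fit of these lines alone (0.043). Between mutB1 and FL the Dusp4 difference had a 95% interval of -0.08 to 0.08 (limma adjusted p = 0.997).

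Dusp1 passed in none of the 6 comparisons in limma (adjusted p between 0.273 and 0.952). It averaged 11.02 ± 0.07 in ΔSAP, 11.09 ± 0.12 in mutB1, 11.10 ± 0.03 in FL and 10.96 ± 0.14 in control (SD, n = 3). The mutB1 arrays overlapped those of every other line. The 95% intervals of its differences reached from -0.25 at the lowest to 0.31 at the highest, so changes of up to about that size cannot be told from none with these arrays.

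Etv4, of the PEA3 factors, was lowest in ΔSAP. Its values were 9.42, 9.50 and 9.50 in ΔSAP, 10.12, 9.97 and 10.06 in mutB1, 9.66, 9.66 and 9.76 in FL, and 10.07, 10.09 and 10.05 in control. All ΔSAP arrays lay below all FL arrays, and these below all mutB1 and control arrays, which overlapped. Etv4 changed by -0.58 ± 0.05 in ΔSAP against mutB1 (SE; limma adjusted p = 1.04e-05) and -0.59 ± 0.05 against control (adjusted p = 8.89e-06). It rose by 0.36 ± 0.05 in mutB1 against FL (limma adjusted p = 0.000255) and changed by -0.37 ± 0.05 in FL against control (adjusted p = 0.000156). The neighbours mutB1 and control differed by -0.02 (95% interval -0.12 to 0.09, limma adjusted p = 0.881).

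The Etv4 difference between ΔSAP and FL was -0.22 ± 0.05 (SE; limma adjusted p = 0.00871). It lost its call when any of 10 arrays was left out, mutB1 replicates 1 and 2 being the exceptions (adjusted p of up to 0.0344), with array medians aligned (0.0638) and in a fit of these lines alone (0.0394). Etv4 and Spry1 thus lay in opposite order in ΔSAP and FL: Etv4 was lower in ΔSAP and Spry1 was lower in FL.

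Etv5 averaged 10.54 ± 0.05 in ΔSAP, 10.75 ± 0.03 in mutB1, 10.51 ± 0.07 in FL and 10.73 ± 0.04 in control (SD, n = 3). The ΔSAP and FL arrays overlapped, the mutB1 and control arrays overlapped, and the first set lay below the second. Etv5 rose by 0.23 ± 0.05 in mutB1 against FL (SE; limma adjusted p = 0.00318) and changed by -0.21 ± 0.05 in FL against control (adjusted p = 0.00489) and in ΔSAP against mutB1 (adjusted p = 0.00738). The first call was lost without mutB1 replicate 1 or FL replicate 1 or 2 (adjusted p = 0.0152 to 0.0162). The second was lost without FL replicate 1 or 2 or control replicate 1 or 2 (0.0196 to 0.0235), and the third without any of 10 arrays, all but FL replicates 2 and 3 (up to 0.031), and with array medians aligned (0.0164). Fits of the compared lines alone gave 0.022, 0.0297 and 0.0278.

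Against control the Etv5 change in ΔSAP was -0.19 (95% interval -0.29 to -0.09, limma adjusted p = 0.0131). It passed without FL replicate 3 (adjusted p = 0.00737), after a further quantile normalization (0.00322), with probe sets of a mean under 6 left out (0.00452) and with an intensity trend (0.00363). A second, dimmer Etv5 probe set gave 0.25 ± 0.04 for mutB1 minus FL (SE; limma adjusted p = 0.000487), -0.24 ± 0.04 for ΔSAP minus mutB1 (adjusted p = 0.000868) and -0.16 ± 0.04 for FL minus control (adjusted p = 0.00864). Both probe sets of Etv5 thus ran the same way in these comparisons. It was the one member with a second single-symbol probe set.

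The line means of the 10 genes were also compared by distance. After subtracting each gene's mean over the 4 lines, Dusp6 and Etv5 were the closest members, with a root mean square difference of 0.04 log2 units over the 4 line means, followed by Spry2 with Spred1 and Spry2 with Etv5 (0.06 each). Dusp5 and Spry1 were the farthest apart (0.96). Among 7698 other genes that differed between lines by the F test, those nearest to Spry1 were Eva1c (0.06), Gper1 (0.07), which encodes a membrane oestrogen receptor, and Nsmf (0.08). Nearest to Dusp5 were Tmem251 (0.02), G930009F23Rik (0.05) and Rbpms2 (0.06), and nearest to Etv4 were Acad8 (0.01), Zfp688 (0.02) and Abca8a (0.02). These distances rest on 4 line means each and describe likeness without a test. The means were not scaled, so the distance also reflects how far a gene moved. Dusp1 and Dusp6 were 0.13 apart, whereas Spry1 and Spred1, with the same order of lines, were 0.32 apart.

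**Figure D3:**
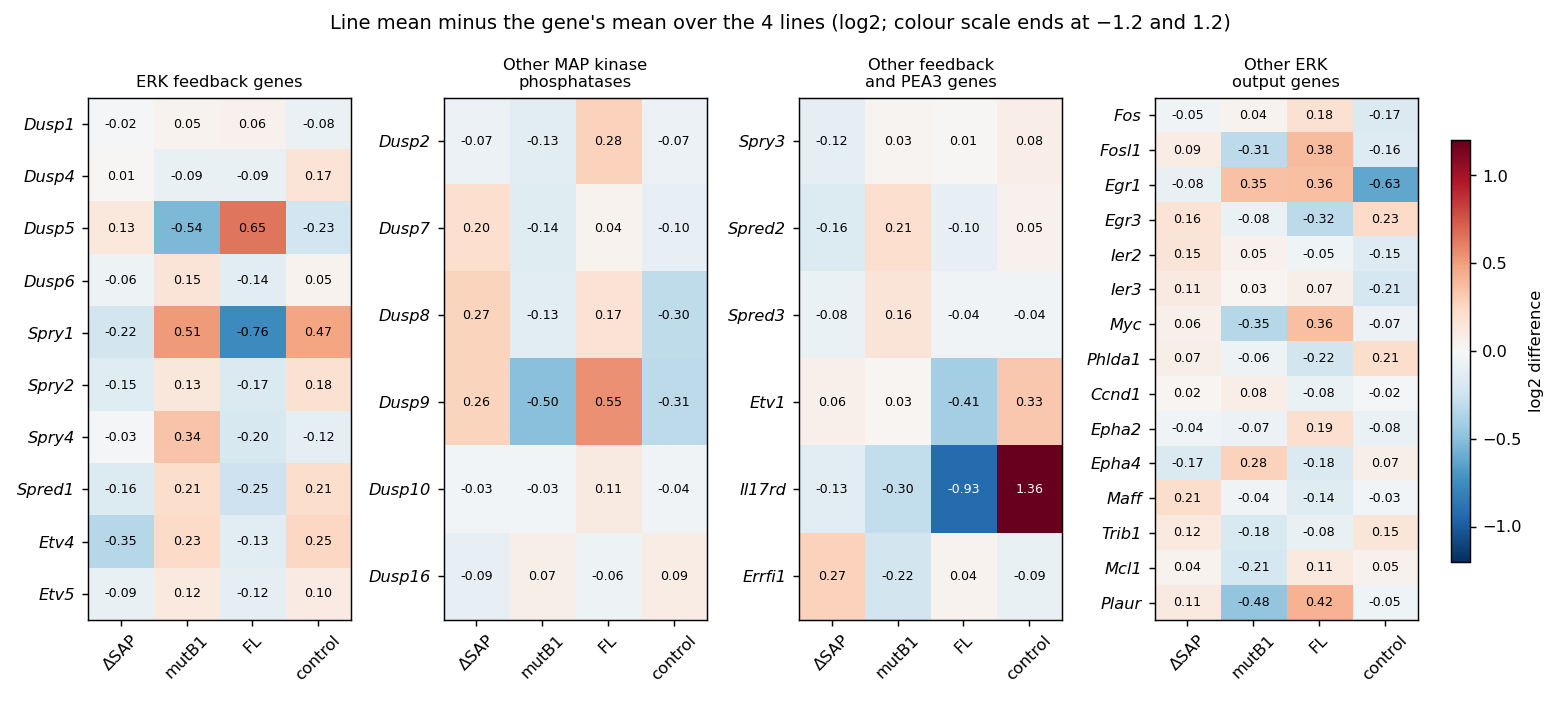
Line mean minus the gene's own mean over the 4 lines (log2, printed in each cell; colour scale from -1.2 to 1.2) for the 10 ERK feedback genes and for 3 lists of related genes, with lines in columns (ΔSAP, mutB1, FL, control). Dusp9 among the other phosphatases and Plaur, Myc and Fosl1 among the other output genes share with Dusp5 a high value in FL and a low value in mutB1, and Il17rd exceeds the colour scale in control at 1.36.

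Of 6 other MAP kinase phosphatases, 4 fell in mutB1 against FL, where 8.82% of all probe sets fell. In ΔSAP against mutB1 3 rose, where 7.07% of all probe sets did. The count of falls in mutB1 was 2 without mutB1 replicate 1 or FL replicate 2, left out singly. Dusp9, an Erk phosphatase, changed by -1.06 ± 0.05 in mutB1 against FL (SE; limma adjusted p = 2.93e-07) and by 0.87 ± 0.05 in FL against control (adjusted p = 8.74e-07), beside -1.19 and 0.88 for Dusp5. Dusp8, a phosphatase of the stress kinases, rose by 0.47 ± 0.05 in FL (limma adjusted p = 2.84e-05) and 0.57 ± 0.05 in ΔSAP (adjusted p = 1.16e-05) against control.

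Of 6 other Sprouty, Spred, PEA3 and receptor feedback genes, 3 rose and 1 fell in mutB1 against FL, beside 7 and 1 of the 10 members. Among all probe sets 9% rose and 8.82% fell. Il17rd, which encodes the receptor antagonist Sef, was far below control in all construct lines, by -1.49 ± 0.08 in ΔSAP, -1.66 ± 0.08 in mutB1 and -2.29 ± 0.08 in FL (SE; limma adjusted p = 4.81e-07, 1.95e-07 and 1.53e-08). Etv1, the third PEA3 factor, changed by -0.74 ± 0.04 in FL against control (limma adjusted p = 1.51e-07), beside -0.37 for Etv4 and -0.21 for Etv5. Unlike Etv4, it rose in ΔSAP against FL, by 0.47 ± 0.04 (limma adjusted p = 1.42e-05). Spred2, a relative of Spred1, rose by 0.30 ± 0.04 in mutB1 against FL (limma adjusted p = 0.000416). Errfi1, the feedback inhibitor of ErbB receptors, was higher in ΔSAP than in mutB1, by 0.50 ± 0.04 (adjusted p = 1.42e-05), where 7 of the members were lower.

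Of 15 other genes known as outputs of Erk, 4 rose and 5 fell in mutB1 against FL, with a median of -0.05. Among all probe sets 9% rose and 8.82% fell there. The 4 rises did not hold when any single array was left out: 3 were called without a ΔSAP or control array, 2 without mutB1 replicate 1 or 2 or FL replicate 3, and 1 without mutB1 replicate 3 or FL replicate 1 or 2, whereas the count of falls stayed at 5. The receptor of urokinase Plaur (-0.90 ± 0.05), the growth regulator Myc (-0.71 ± 0.04) and the AP-1 factor Fosl1 (-0.70 ± 0.04) fell in mutB1 (SE; limma adjusted p = 4.77e-07, 1.12e-06 and 1.42e-06), as Dusp5 did, while the ephrin receptor gene Epha4 rose by 0.46 ± 0.07 (adjusted p = 0.00107), as Spry1 did. In FL against control 6 rose and 3 fell, where 9.61% of all probe sets rose and 10.4% fell. The largest change was that of the immediate early factor Egr1 (0.99 ± 0.05, limma adjusted p = 1.87e-07). Egr1 also rose in mutB1 against control (0.98 ± 0.05, limma adjusted p = 2.89e-07), where Dusp5 did not rise. Genes that are all known Erk outputs were thus found on both sides of the same comparison.

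Upstream of the members, 15 of 22 listed genes of the Ras-ERK cascade were measured here. For the counts below, 9% of all probe sets rose and 8.82% fell in mutB1 against FL. In FL against control 9.61% rose and 10.4% fell. In mutB1 against FL 4 rose and 3 fell, with the adaptor Gab1 at 0.42 ± 0.06 (SE; limma adjusted p = 0.000373) and the Ras activator Sos2 at -0.47 ± 0.05 (adjusted p = 4.74e-05) as the largest. The count of falls was 1 without mutB1 replicate 3, FL replicate 2 or FL replicate 3, left out singly. In FL against control 2 rose and 3 fell, Gab1 by -0.92 ± 0.06 (limma adjusted p = 1.11e-06). The count of rises was 1 when any of 10 arrays was left out, all but ΔSAP replicate 1 and control replicate 3. Of 23 measured receptors and ligands 8 rose and 7 fell in mutB1 against FL. The count of falls was 3 without mutB1 replicate 2 or 3 and 4 without any single FL array, whereas the count of rises stayed at 8. Those with the largest changes were Pdgfrb (3.96 ± 0.10), Fgf1 (1.91 ± 0.08) and Pdgfra (1.49 ± 0.06) upward and Erbb3 (-1.28 ± 0.08) and the EGF-family ligand Hbegf (-0.63 ± 0.04) downward (limma adjusted p between 1.92e-09 and 2.75e-06). In FL against control 5 rose and 7 fell. Hbegf was among the rises at 0.98 ± 0.04 (limma adjusted p = 8.53e-08), and Pdgfra among the falls at -1.38 ± 0.06 (adjusted p = 7.96e-08).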

How the data were processed

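The 12 arrays were deposited as RMA log2 expression values, which the authors computed with the affy package (R 2.10.0, per the submitters' processing notes and the series design text). Each value is a log2 probe set summary, so no test compared levels of different probe sets. Levels were used to pick the brightest probe set of a gene, to filter by mean, and to average marker lists and set them beside array medians. The platform annotation gave 21640 of 34760 probe sets a single symbol, 1321 several and 11799 none; 21553 of the first were matched to RefSeq by Entrez identifier. From the deposited values, limma 3.58.1 in R 4.3.3 fitted the 4 line means and tested 6 differences and an F test, as the design text's moderated statistics do. The members and lists were chosen with earlier results of these data known. Named are all 10 members, up to 3 called genes per direction and list with the largest change, and the 3 genes nearest in profile to each of the 3 members of widest range. The number of arrays limits the precision. The fit was tested on simulated data. Alternatives covered normalization, filters, thresholds, the variance prior, probe set choice, the lines fitted, a replicate block and each array left out.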

Additional observations from a re-analysis of the deposited data

How the results depend on the processing

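Of the 36 changes called among the 10 genes, 0 reversed under the 10 alternatives or the 12 left-out arrays, 9 lost the call without 1 array and 9 under another setting, the fold filter aside. Under the design text's filter, limma called 0 genes in ΔSAP minus FL, 2 in mutB1 minus FL, 0 in ΔSAP minus mutB1, 1 in FL minus control, 0 in mutB1 minus control, 0 in ΔSAP minus control and 2 by the F test. In the comparisons with 0, unadjusted p was under 0.05 for 5 genes in ΔSAP minus FL, 9 in ΔSAP minus mutB1, 4 in mutB1 minus control and 8 in ΔSAP minus control. Of all 34760 probe sets, 9665, 12194, 10068 and 11539 were under 0.05 in these comparisons, in the same order. A fit of the ΔSAP and mutB1 arrays alone called 5 genes in place of 8, with fewer arrays behind the error. Without 1 array the counts ran from 2 to 3 in ΔSAP minus FL, 7 to 8 in mutB1 minus FL, 6 to 8 in ΔSAP minus mutB1, 6 to 8 in FL minus control, 2 to 3 in mutB1 minus control and 4 to 7 in ΔSAP minus control, and the F test called 9.

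No pairing of cultures by replicate number was seen. Deviations of same-numbered arrays from their line means correlated at -0.20 to 0.17, over 0.1 in 2 of 18 pairs. Those of different numbers correlated at -0.16 to 0.27. Such values cannot show that the cultures were handled separately. With the number as a replicate block, limma called 2 genes in ΔSAP minus FL, 7 in mutB1 minus FL, 7 in ΔSAP minus mutB1, 7 in FL minus control, 2 in mutB1 minus control, 5 in ΔSAP minus control and 8 by the F test.

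Differences near 0 that had not been called changed sign, and the cause was not tested. With array medians aligned, mutB1 minus FL was 0.0381 for Dusp1 and 0.0476 for Dusp4, and mutB1 minus control was -0.00229 for Spred1. After a further quantile normalization these were 0.0049 for Dusp4 and -0.025 for Spred1. Without 1 array, Dusp1 ran from -0.0803 to 0.0379 in mutB1 minus FL, -0.116 to 0.00251 in ΔSAP minus mutB1 and -0.0213 to 0.106 in ΔSAP minus control. Dusp4 ran from -0.0151 to 0.0210 in mutB1 minus FL, and Spry2 from -0.0215 to 0.0535 in ΔSAP minus FL. In mutB1 minus control, Spred1 ran from -0.0278 to 0.0313, Etv4 from -0.0496 to 0.0235 and Etv5 from -0.00081 to 0.0368.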
